A study of Mus musculus with 6 samples.

Results

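A set of 9 regulators of cytokine signalling were followed here, STAT2, STAT3, IRF1, IRF3, IRF7, IRF8, IRF9, SOCS1 and SOCS3, by the counts of their genes in sorted Paneth cells (PCs). PCs sit at the bottom of the crypts of the small intestine and secrete antimicrobial granules. The 9 genes were taken as named STAT, IRF and SOCS genes and matched by Ensembl identifier, 9 of 55414 genes in the table, and all 9 passed the filter on low counts that left 13026 genes for testing.

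The libraries came from the small intestine of 6 C57BL/6J mice labelled IFNAR1 KO, so by its label every animal, controls included, carried the knockout of this type I interferon receptor subunit. The mice received phosphate-buffered saline (PBS, 3 mice) or tumour necrosis factor (TNF, 3 mice), and PCs were sorted 15 h later, with 1 library per mouse. No Ifnar1-intact library was analysed here, and the labels give no dose, age, sex, sorting gate or batch, nor the cells in which the gene was disrupted. The comparison asks what TNF did to these regulators in mice labelled as lacking this receptor subunit. Ifnar1 itself had 5.19, 8.88 and 9.55 CPM (counts on a common library total, with TMM factors) in the PBS libraries and 5.18, 7.78 and 12.7 CPM in the TNF libraries, or 61 to 159 counts. It was thus counted in all 6 libraries, and with no intact library to set beside them and no account of the allele in the labels, a count over the whole gene does not check the knockout.

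STAT proteins are transcription factors that Janus kinases switch on at cytokine receptors. STAT2 joins IRF9 in ISGF3, the complex through which type I and type III interferons act, while STAT3 carries signals of the interleukin-6 and interleukin-22 families and drives antimicrobial genes in the gut epithelium. IRF1, IRF3, IRF7 and IRF8 are transcription factors of antiviral and inflammatory programmes, some made on demand and some kept ready, and SOCS1 and SOCS3 are feedback inhibitors that bind receptors or kinases. Many of these genes are themselves targets of the pathways they serve, so their transcripts are often read as a record of recent signalling.

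The upstream sequences are shown first for the genes whose transcripts differed most between libraries, and for Irf1 as a gene that hardly did. Each is the 250 bases before the annotated start of the gene's canonical transcript, 5′ to 3′ along the gene's own strand in GRCm39. Capitals mark matches to the interferon-stimulated response element core (ISRE, GAAANNGAAA), to the STAT dimer site (GAS, TTCNNNGAA) or to the NF-kB consensus, searched on both strands. Stat2 lies on the plus strand (chr10:128106102-128106351), Irf9 on the plus strand (chr14:55841192-55841441), Irf7 on the minus strand (chr7:140846399-140846648), Irf1 on the plus strand (chr11:53660591-53660840) and Socs3 on the minus strand (chr11:117860124-117860373).
Stat2: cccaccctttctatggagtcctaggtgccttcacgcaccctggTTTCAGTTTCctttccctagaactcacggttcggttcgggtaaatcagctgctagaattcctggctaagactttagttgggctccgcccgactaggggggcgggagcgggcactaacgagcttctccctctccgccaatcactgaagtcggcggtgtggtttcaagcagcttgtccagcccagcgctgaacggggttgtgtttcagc
Irf9: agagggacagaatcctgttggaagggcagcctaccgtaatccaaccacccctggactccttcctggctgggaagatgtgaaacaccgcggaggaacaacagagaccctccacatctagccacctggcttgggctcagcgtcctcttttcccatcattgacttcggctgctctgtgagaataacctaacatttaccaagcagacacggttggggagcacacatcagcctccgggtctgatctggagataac
Irf7: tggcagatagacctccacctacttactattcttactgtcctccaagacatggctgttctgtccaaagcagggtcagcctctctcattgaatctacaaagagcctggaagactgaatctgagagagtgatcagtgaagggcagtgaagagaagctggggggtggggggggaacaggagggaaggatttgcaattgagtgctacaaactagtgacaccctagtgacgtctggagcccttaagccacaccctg
Irf1: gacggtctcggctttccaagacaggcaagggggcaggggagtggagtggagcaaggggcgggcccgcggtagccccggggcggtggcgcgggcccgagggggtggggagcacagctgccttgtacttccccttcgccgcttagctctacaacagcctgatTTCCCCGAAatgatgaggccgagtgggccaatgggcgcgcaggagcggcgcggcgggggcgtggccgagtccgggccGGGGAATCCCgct
Socs3: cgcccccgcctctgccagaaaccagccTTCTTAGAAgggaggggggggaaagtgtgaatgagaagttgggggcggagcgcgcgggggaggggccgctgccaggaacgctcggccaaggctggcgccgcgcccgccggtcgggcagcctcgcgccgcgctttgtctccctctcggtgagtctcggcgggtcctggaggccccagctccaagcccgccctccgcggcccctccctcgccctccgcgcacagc

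Stat2 held 1 ISRE core, on the reverse strand, 207 to 198 bases before the start. Irf1 held a GAS match 90 to 82 bases and an NF-kB match 13 to 4 bases before the start, and Socs3 held a GAS match 223 to 215 bases before it. Irf9 and Irf7 held none of the 3 motifs in this window, nor did Stat3. For Irf9 and Socs3, other annotated starts lie further upstream than the window and were not searched. Among the genes not printed, Irf8 held 2 GAS matches, and Irf3 and Socs1 held 1 NF-kB match each. The middle of the Socs1 window was not found in the promoter that the RefSeq annotation gives for this gene, whereas those of the other members were found in theirs. No matches in the 9 windows overlapped. Over 21757 protein-coding genes, windows of this length held an ISRE core in 3.32%, a GAS match in 7.7% and an NF-kB match in 7.63%.

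**Figure D1:**
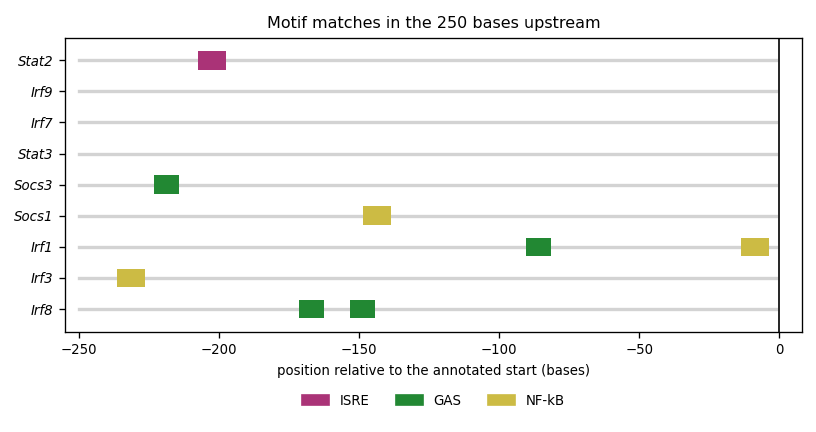
Motif matches in the 250 bases upstream of the annotated start of each of the 9 genes, by position in bases relative to that start. Bars are ISRE, GAS and NF-kB matches to scale, and Irf1 is the gene with matches to 2 different motifs.

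The libraries themselves were compared before the genes. Total counts ran from 12747484 to 17039511, and the upper limit set by 0 counts was 0.147 to 0.255 CPM, taking 3 counts as the limit. TNF replicate 1 stood apart from its group, with a Pearson correlation of log2 CPM across genes of 0.884 and 0.883 with the other TNF libraries but 0.937 to 0.945 with the PBS libraries. It was kept as labelled, and the fold changes are also given without it. All 9 PC markers were counted in every library, and their summed level was 343000 to 421000 CPM in PBS against 253000 to 554000 CPM in TNF. Of 24 immune cell markers, 6 were at 0 in every library, including the T cell genes Cd3g, Cd8a and Cd4, and 7 of 11 endothelial, erythroid and stromal markers were at 0. In a bulk sample, fewer cells of a type cannot be told apart from less RNA per cell.

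None of the 9 genes passed an adjusted p of 0.05 (5%) over all 6 libraries with edgeR, and none did with DESeq2 or limma-voom. The background was 0.0% of genes with edgeR and with limma-voom, and 1.71% with DESeq2. At an unadjusted p under 0.05 there were 2 members with edgeR, Irf9 (higher) and Socs3 (lower), beside 1596 of all genes (12.3%). DESeq2 had the same number of members under 0.05, beside 12.9% of all genes, and limma-voom had 1, Socs3, beside 12.8%. The median log2 fold change of the members was 0.00, the same as that of all genes. With TNF replicate 1 left out, a choice made from its expression, Stat2, Irf9 and Irf7 passed 5%, all higher in TNF. In that fit 14.5% of 13660 genes were called, 9.1% higher and 5.4% lower, and the members' median moved to 0.17.

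**Figure D2:**
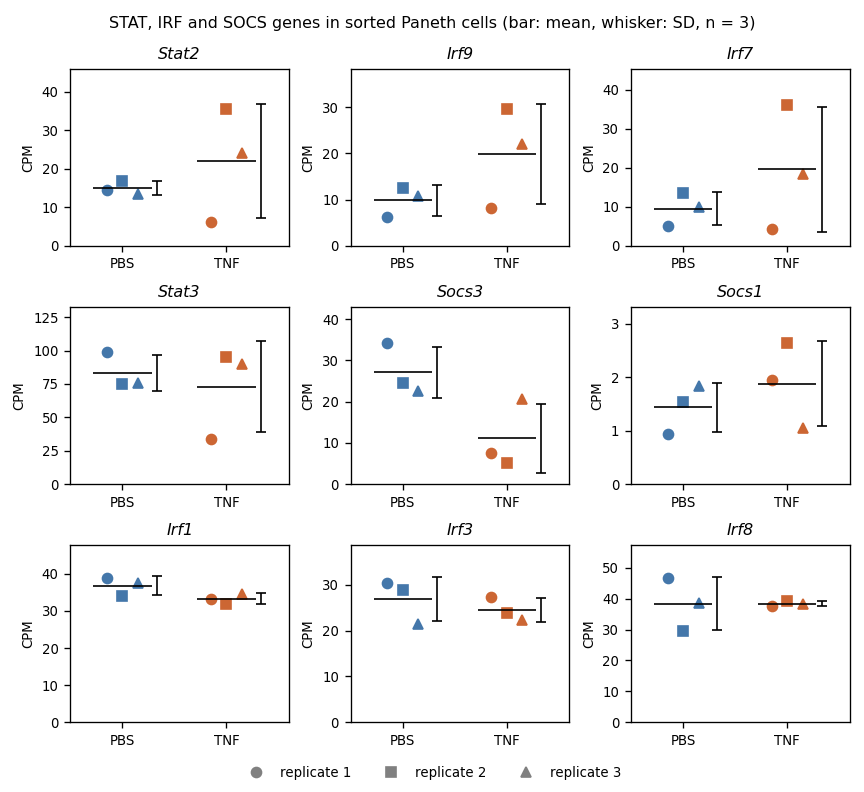
CPM of the 9 genes in the 3 PBS and 3 TNF libraries, 1 panel per gene, with symbols for replicate number, a bar for the mean and a whisker for the SD beside it. TNF replicate 1 lies far below TNF replicates 2 and 3 for Stat2, Irf9, Irf7 and Stat3, and for Socs3 every TNF library lies below every PBS library.

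Stat2 and Irf9, the partners in ISGF3, had a similar pattern. Stat2 (ENSMUSG00000040033, chromosome 10, 128106352 to 128128735) had 14.6, 16.9 and 13.4 CPM in the PBS libraries, in replicate order, against 6.29, 35.6 and 24.1 CPM in the TNF libraries. TNF replicates 2 and 3 were above every PBS library and TNF replicate 1 was below every one, at 74 counts against 182 to 253. The means were 14.9 ± 1.79 CPM in PBS and 22.0 ± 14.8 CPM in TNF (SD, n = 3), a log2 fold change of 0.56 (SE 0.49, adjusted p 0.673 by edgeR). Leaving out TNF replicate 1 gave 1.02 (SE 0.23, adjusted p 0.0142, range over all alternatives 0.0142 to 0.995), and leaving out TNF replicate 2 gave -0.01.

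Irf9 (ENSMUSG00000002325, chromosome 14, 55841028 to 55847812), the DNA-binding partner of the STATs in that complex, had 6.20, 12.6 and 10.7 CPM in PBS against 8.24, 29.5 and 22.0 CPM in TNF. Here TNF replicate 1 lay within the PBS range and the other TNF libraries lay above it. The log2 fold change was 1.02 (SE 0.45, adjusted p 0.401 by edgeR) over means of 9.82 ± 3.29 and 19.9 ± 10.8 CPM. It was 1.41 without TNF replicate 1 (SE 0.29, adjusted p 0.00894, range 0.00894 to 0.919) and 0.59 without TNF replicate 2. Irf9 shares 282 exon bases with Rnf31 on the same strand in the annotation used. Rnf31 had 11.2 to 16.7 CPM in PBS against 8.58 to 16.3 CPM in TNF, with a log2 fold change of -0.13.

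Irf7, which amplifies interferon production once a first signal has induced it, followed the same order of libraries as Stat2 within TNF. Irf7 (ENSMUSG00000025498, chromosome 7, 140842619 to 140846398) had 5.05, 13.6 and 9.85 CPM in PBS against 4.25, 36.2 and 18.4 CPM in TNF. TNF replicates 2 and 3 again exceeded every PBS library, and TNF replicate 1, at 50 counts, fell below all of them. The log2 fold change was 1.05 (SE 0.64, adjusted p 0.527 by edgeR), with means of 9.50 ± 4.29 and 19.6 ± 16.0 CPM. It rose to 1.54 without TNF replicate 1 (SE 0.38, adjusted p 0.0198, range 0.0198 to 0.943) and fell to 0.22 without TNF replicate 2.

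PBS replicate 1, the lowest PBS library for Irf7 and Irf9, was also the lowest for tuft cell genes. The 8 tuft cell markers summed to 448, 1250 and 1540 CPM in PBS replicates 1 to 3. In TNF they summed to 547, 1030 and 565 CPM. Irf7 was at 4.25 and 18.4 CPM in TNF replicates 1 and 3, which had tuft marker sums of 547 and 565 CPM. TNF replicate 2 had a lower sum than PBS replicates 2 and 3 and the highest Irf7. All 8 tuft markers were detected, with Dclk1 at 123 to 478 CPM in PBS against 114 to 287 CPM in TNF. Stem cell markers (8 genes) summed to 2610 to 3200 CPM in PBS and to 4760, 939 and 831 CPM in TNF. Enterocyte markers (12 genes) summed to 401 to 483 CPM in PBS and to 428, 141 and 109 CPM in TNF. TNF replicates 2 and 3, which were high for Stat2, Irf9 and Irf7, were thus low for both sums. Olfm4 made up most of the stem cell sum in PBS, at 1920 to 2370 CPM, and was at 233 and 272 CPM in TNF replicates 2 and 3. Ascl2, Smoc2, Axin2, Rnf43 and Tnfrsf19 were also below every PBS library in both. Lgr5 and Slc12a2 were not, at 68.3 and 510 CPM in TNF replicate 2. Goblet cell markers summed to 4930 to 5250 CPM in PBS against 4060 to 4980 CPM in TNF, and enteroendocrine markers to 77.1 to 202 CPM against 60.4 to 154 CPM. The goblet sum joined genes that lay on opposite sides of PBS in TNF replicate 2, and the TNF libraries differed among themselves. In TNF replicate 2, Muc2 was at 2580 CPM against 1110 to 1860 CPM in PBS. Tff3 was at 283 CPM there against 1050 to 1180 CPM in PBS, and Fcgbp, Clca1, Zg16, Agr2 and Klk1 were also below every PBS library. Muc2 was at 888 CPM in TNF replicate 1, below every PBS library, and at 1440 CPM in TNF replicate 3, inside the PBS range. Clca1 was at 302 CPM in TNF replicate 1 against 32.0 to 66.3 CPM in PBS. Agr2 was at 1900 CPM in TNF replicate 3, inside the PBS range. The part of these lists in the Stat2, Irf7 and Irf9 levels was not tested.

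**Figure D3:**
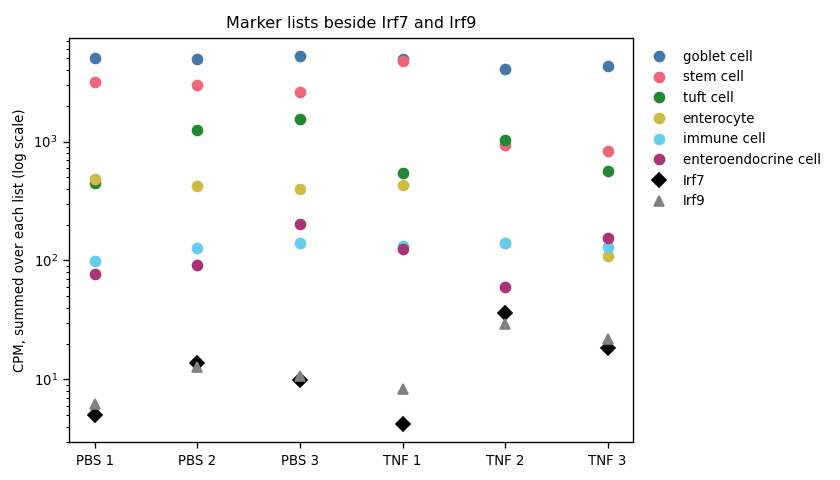
CPM per library, on a log scale, summed over each of 6 marker lists, beside the CPM of Irf7 and Irf9. Tuft cell genes are lowest in PBS replicate 1 (448 CPM) and highest in PBS replicate 3 (1540 CPM), and Irf7 is highest in TNF replicate 2 (36.2 CPM).

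Stat3 had the highest mean per transcript length among the members in PBS, and its groups overlapped. Stat3 (ENSMUSG00000004040, chromosome 11, 100775924 to 100830450) had 99.2, 75.1 and 75.8 CPM in PBS against 34.1, 95.1 and 90.0 CPM in TNF. TNF replicates 2 and 3 lay inside the PBS range, and TNF replicate 1 had less than every other library. The log2 fold change was -0.19 (95% interval -0.99 to 0.61, adjusted p 0.858 by edgeR). Its sign turned without TNF replicate 1, to 0.17 (interval -0.28 to 0.62).

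Socs3, the inhibitor that binds the receptors through which STAT3 is activated, was the 1 member whose groups did not overlap over all 6 libraries. Socs3 (ENSMUSG00000053113, chromosome 11, 117856905 to 117860898) had 34.2, 24.6 and 22.5 CPM in PBS against 7.56, 5.09 and 20.5 CPM in TNF. TNF replicates 1 and 2 were far below the PBS libraries and TNF replicate 3 was just below the lowest of them. The log2 fold change was -1.30 (SE 0.46, adjusted p 0.329 by edgeR), from 27.1 ± 6.23 to 11.0 ± 8.25 CPM, and 7.82% of all genes tested were lower in TNF without overlap. It was -1.09 without TNF replicate 1 (SE 0.45, adjusted p 0.137, range over all alternatives 5.5e-04 to 0.813) and -2.10 without TNF replicate 3. With no filter on low counts, Socs3 passed 5% at -1.34 (adjusted p 5.5e-04), as did Irf7 (1.02) and Irf9 (0.99), where 2.94% of genes were called.

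Ratios of counts within a library need no scaling between libraries. There were 34.5, 32.8 and 29.7 Socs3 counts for every 100 Stat3 counts in PBS replicates 1 to 3, and 22.2, 5.35 and 22.7 in the TNF libraries. For Stat2 the numbers per 100 Stat3 counts were 14.7, 22.5 and 17.6 in PBS and 18.5, 37.4 and 26.7 in TNF, and for Irf9 6.25, 16.8 and 14.1 in PBS and 24.2, 31.1 and 24.4 in TNF. Irf7 counts per 100 Irf3 counts were 16.6, 47.2 and 45.9 in PBS and 15.6, 151 and 82.7 in TNF. The Socs3 ratio was lower and the Irf9 ratio higher in every TNF library than in any PBS library, TNF replicate 1 included. The Stat2 and Irf7 ratios overlapped. Low Stat3 in TNF replicate 1 (401 counts, against 1032 to 1375 in PBS) enters each ratio to Stat3 there. In CPM, Irf9 in that library (8.24) was within the PBS range (6.20 to 12.6). How often ratios of other genes separate the groups was not computed. The ratios were chosen after the values were seen and were not tested.

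Socs1, the inhibitor of interferon receptor kinases, had the fewest counts of the members. Socs1 (ENSMUSG00000038037, chromosome 16, 10600104 to 10603875) had 13, 23 and 25 counts in PBS and 23, 54 and 13 counts in TNF, or 0.938 to 1.84 and 1.05 to 2.64 CPM. The groups overlapped, and the 95% interval of the log2 fold change, -0.97 to 1.76 around 0.40, held both a decrease and an increase (adjusted p 0.824 by edgeR). Without TNF replicate 1 the value was 0.39 (-1.15 to 1.94), and the interval of Irf7, which had 50 to 739 counts, was wider over all 6 libraries (-0.38 to 2.48).

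Irf1, Irf3 and Irf8 had log2 fold changes of -0.15 to 0.00 over all 6 libraries. Irf1 (ENSMUSG00000018899, chromosome 11, 53660812 to 53669200), a factor usually induced by interferon-gamma and by NF-kB signalling, had 38.9, 34.0 and 37.6 CPM in PBS against 33.3, 31.8 and 34.7 CPM in TNF. The groups overlapped and lay within a narrow range in all 6 libraries. The log2 fold change was -0.15 with a 95% interval of -0.56 to 0.26 (adjusted p 0.780 by edgeR), and -0.13 without TNF replicate 1 (-0.54 to 0.29), so that an increase of 1 log2 unit lay outside both intervals.

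Irf3 (ENSMUSG00000003184, chromosome 7, 44647033 to 44652272), a latent factor that is activated by phosphorylation downstream of nucleic acid sensors, had 30.4, 28.8 and 21.5 CPM in PBS against 27.3, 23.9 and 22.3 CPM in TNF. The 3 TNF libraries lay inside the PBS range, with a log2 fold change of -0.14 (interval -0.63 to 0.35, adjusted p 0.832 by edgeR), and of -0.20 (-0.68 to 0.28) without TNF replicate 1. Irf8 (ENSMUSG00000041515, chromosome 8, 121463096 to 121485659), best known from myeloid and B cells, had 46.7, 29.6 and 38.6 CPM in PBS against 37.7, 39.2 and 38.3 CPM in TNF. The TNF libraries were closer to each other than the PBS libraries were, and the log2 fold change was 0.00 (interval -0.48 to 0.49, adjusted p 0.995 by edgeR), and 0.04 (-0.45 to 0.52) without TNF replicate 1.

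Irf8 was read beside the immune cell markers. Their sum was 98.5 to 140 CPM in PBS against 129 to 139 CPM in TNF, nearly all of it from Cd74 (76.0 to 97.1 CPM over the 6 libraries), Lyz2 (13.1 to 27.6 CPM) and Ptprc (3.90 to 33.9 CPM). The B cell gene Cd79a reached at most 0.0489 CPM, Ms4a1 0.0735 CPM and the macrophage receptor Csf1r 0.196 CPM. Other B cell and myeloid genes of the list were higher, Cd79b at 0.0721 to 2.34 CPM and Cd68 at 0.649 to 1.61 CPM. PBS replicate 1 had the most Irf8 (46.7 CPM) and the least Ptprc (3.90 CPM). It also had the lowest tuft cell marker sum (448 CPM). The part of immune cells in the Irf8 level was not tested.

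**Figure D4:**
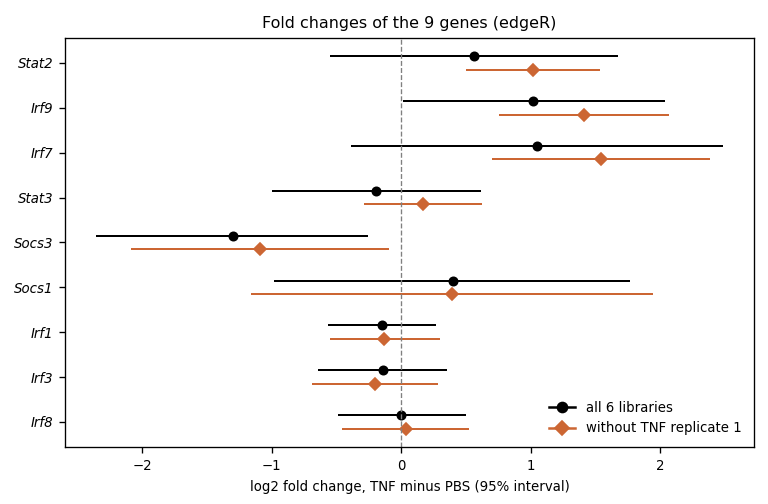
Log2 fold change of the 9 genes, TNF minus PBS, with 95% intervals from edgeR, for all 6 libraries (black) and without TNF replicate 1 (orange). Intervals for Stat2 and Irf7 leave 0 on the upper side only without that library (0.51 to 1.53 and 0.71 to 2.38), and those of Irf1, Irf3 and Irf8 span 0 in both fits.

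Per kilobase of canonical transcript, the PBS libraries put Stat3 first at 18.3 ± 3.00 CPM per kb, then Irf1 at 17.3 ± 1.18, Irf3 at 13.0 ± 2.32, Socs3 at 10.2 ± 2.34 and Irf8 at 7.55 ± 1.69. Irf7 (3.96 ± 1.79), Irf9 (3.53 ± 1.18) and Stat2 (3.32 ± 0.397) followed and Socs1 (0.441 ± 0.140) came last. Of neighbours in this order, Irf1 did not overlap with Irf3, Irf8 did not overlap with Irf7, and Stat2 did not overlap with Socs1. The ranges of the other neighbours overlapped. Within each PBS library, however, Irf3 lay above Socs3 and Socs3 above Irf8, while the order of the remaining neighbours varied between libraries. In TNF the means of Irf7 (8.18 ± 6.67 CPM per kb), Irf9 (7.16 ± 3.88) and Stat2 (4.88 ± 3.28) stood above that of Socs3 (4.14 ± 3.10). With the union of all annotated exons as the length, Stat3, Irf1, Irf3 and Socs3 kept their order in PBS and lay closer together, at 8.26, 7.88, 7.73 and 7.61 CPM per kb, while Stat2 (2.37) came before Irf9 (1.69).

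The distance of TNF replicate 1 from its group differed between members. It lay below every PBS library for 5 of the 9, Stat2, Stat3, Irf1, Irf7 and Socs3, where 26.6% of all genes tested did so. On the log2 scale its distance from the PBS mean was -1.22 for Stat2, -1.27 for Stat3, -1.03 for Irf7 and -1.80 for Socs3, but -0.14 for Irf1, 0.04 for Irf3 and 0.00 for Irf8. TNF replicates 2 and 3 lay 1.25 and 0.69 above the PBS mean for Stat2, 2.02 and 1.06 for Irf7, and 1.64 and 1.21 for Irf9. TNF replicate 2 was the highest library for each of these 3 genes and the lowest for Socs3 (-2.36).

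Genes with the most similar profiles over the 6 libraries were looked up for 4 members, by the mean absolute difference of centred log2 CPM among 9766 genes. For Irf7 the nearest was Rnf213 (0.18), at 45.1, 90.1 and 73.3 CPM in PBS against 35.9, 329 and 197 CPM in TNF, followed by Kctd9 (0.23) and Ms4a8a (0.24). For Stat3 they were Tbc1d2 (0.08), Arel1 (0.09) and Bcl6 (0.09), the last a transcriptional repressor, and for Irf1 Slc37a3, Ints4 and Qser1 (0.02 each). For Socs3 they were Ubox5 (0.33), Bcl3 (0.36) and Chrnb4 (0.39), at larger distances than for the other members. Bcl3, an NF-kB cofactor, had 18.2, 11.3 and 14.5 CPM in PBS against 4.42, 2.74 and 4.67 CPM in TNF.

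The 6 groups of related genes were set beside the members, each described by its counts. At an unadjusted p under 0.05 over all 6 libraries the background was 12.3% of genes. Dropping TNF replicate 1 brought 634 further genes through the low-count filter, among them genes near 0 in PBS that passed through the TNF libraries in which they were high. Counts and medians without that library are therefore given over the genes tested in both fits, a choice made after the values were seen, where 14.5% of 13026 genes were called, 8.91% higher and 5.6% lower. Even so, a gene near 0 in PBS could enter the fit over all 6 libraries through TNF alone. Of 15 other STAT, IRF and SOCS genes, 12 were tested and 0 passed 5% with edgeR, DESeq2 or limma-voom, with 0 at an unadjusted p under 0.05 and a median log2 fold change of -0.13. Leaving out TNF replicate 1 also gave 0 of these 12 (median -0.06). Cish, a SOCS family inhibitor that follows STAT5, had 4.62, 3.47 and 4.26 CPM in PBS against 4.33, 1.42 and 0.00 CPM in TNF (log2 change -1.11, SE 0.98, adjusted p 0.676 by edgeR), and its log2 fold change was -2.40 without TNF replicate 1 and -0.53 without TNF replicate 3. Socs4 had 25.7 to 36.9 CPM in PBS against 28.6 to 47.7 CPM in TNF (0.37, SE 0.25, adjusted p 0.583). Stat5a, whose exons overlap those of Stat3 on the opposite strand by 142 bases, had 2.20 to 5.05 CPM in PBS against 3.31 to 8.71 CPM in TNF (0.73, SE 0.50, adjusted p 0.585). Without TNF replicate 1, Socs4 was at 0.59 and Stat5a at 1.00, both short of 5% (adjusted p 0.0823 and 0.195 by edgeR).

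Receptor subunits and Janus kinases sit upstream of the STATs. With edgeR 0 of 15 tested passed 5%, with 5 at an unadjusted p under 0.05, while DESeq2 called 2, both higher in TNF. With TNF replicate 1 left out, 4 of the same 15 passed (26.7%), all higher, among them Ifngr1, Ifngr2 and Il6st. Ifngr2, a subunit of the interferon-gamma receptor, had 32.2, 23.6 and 31.1 CPM in PBS against 37.8, 162 and 148 CPM in TNF (log2 change 2.00, SE 0.47, adjusted p 0.270 by edgeR). Its partner Ifngr1 had 30.2, 21.9 and 29.8 CPM in PBS against 42.2, 64.7 and 64.2 CPM in TNF (1.07, SE 0.24, adjusted p 0.270). For both, all 3 TNF libraries lay above all PBS libraries, as for 9.07% of genes tested. Ifnlr1, the specific subunit of the type III interferon receptor, was lower without overlap, at 4.04 to 4.48 CPM in PBS against 1.78 to 2.45 CPM in TNF (-1.03, SE 0.40, adjusted p 0.361). Without TNF replicate 1 the log2 fold changes were 2.44 for Ifngr2 (adjusted p 4.11e-05 by edgeR), 1.26 for Ifngr1 (0.00209) and -0.91 for Ifnlr1 (0.202). Osmr, the oncostatin M receptor, had at most 0.577 CPM in PBS, 0.085 CPM in TNF replicate 1, and 24.0 and 19.5 CPM in TNF replicates 2 and 3, and was too low in 4 libraries to be tested over all 6, so it is in no count here.

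Sensors and adaptors that lead to IRF3 and IRF7 had a median log2 fold change of 0.70. With edgeR 0 of 18 passed 5% (3 at an unadjusted p under 0.05), as with DESeq2 and limma-voom, and 11 of 18 passed without TNF replicate 1 (61.1%), all higher (median 1.05). Both the 3 and the 11 include a gene with 5, 6 and 14 counts in PBS, which needed TNF libraries to pass the low-count filter. Sting1, the adaptor of cytosolic DNA sensing, had 11.1, 7.68 and 6.17 CPM in PBS against 6.63, 112 and 70.9 CPM in TNF (log2 change 2.93, SE 0.77, adjusted p 0.274 by edgeR). Trim25, a ubiquitin ligase of RNA sensing, had 73.4 to 78.9 CPM in PBS against 79.5, 232 and 184 CPM in TNF (1.10, SE 0.35, adjusted p 0.300). Tlr3, a receptor for double-stranded RNA, had 9.74 to 11.2 CPM in PBS against 7.65, 25.5 and 20.1 CPM in TNF (0.79, SE 0.39, adjusted p 0.443). Sting1 and Tlr3 thus had TNF replicate 1 inside or below the PBS range. Without that library the log2 fold changes were 3.48 for Sting1, 1.46 for Trim25 and 1.17 for Tlr3 (adjusted p 2.73e-05, 9.01e-04 and 0.0059 by edgeR).

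Other brakes on the pathway had a median of 0.16, and 0 of 15 passed 5% with edgeR, DESeq2 or limma-voom. At an unadjusted p under 0.05 there was 1 with edgeR (6.67%, below the background of 12.3%), Elob, a subunit of the ubiquitin ligase that SOCS proteins recruit, at 12.3 to 17.2 CPM in PBS against 23.6 to 26.5 CPM in TNF (log2 change 0.79, SE 0.22, adjusted p 0.278 by edgeR). TNF replicate 1, at 23.6 CPM, was above every PBS library for Elob. Without that library 2 of the same 15 passed (13.3%, near the background of 14.5%), Elob at 0.83 and the phosphatase gene Ptpn11 at 0.68 (adjusted p 0.0305 and 0.0482 by edgeR). Usp18, an interferon-induced brake at the type I receptor, had 0.144 to 0.661 CPM in PBS, 0.170 CPM in TNF replicate 1, and 22.5 and 18.8 CPM in TNF replicates 2 and 3, and was not tested over all 6 libraries.

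Interferon target genes had the highest median of the 6 groups, 1.47. Of 22 tested, 20 had a positive log2 fold change and 0 passed 5% with edgeR, with 13 at an unadjusted p under 0.05. DESeq2 called 4 and limma-voom 0. In TNF replicate 1 their median was -0.69 relative to the PBS mean on the log2 scale, and without it 17 of the same 22 passed (77.3%), all higher (median 1.84). Among the 17, Ido1 (8, 0 and 0 counts in PBS) and other genes low in PBS needed TNF libraries to pass the low-count filter. Their high TNF values thus helped to place them among the genes counted. Gbp2, a guanylate-binding GTPase, had 0.735 to 1.47 CPM in PBS against 0.510, 48.7 and 37.7 CPM in TNF (log2 change 4.78, SE 1.16, adjusted p 0.270 by edgeR). Ido1, a tryptophan-degrading enzyme, had at most 0.577 CPM in PBS against 0.935, 37.0 and 28.7 CPM in TNF (6.82, SE 1.41, adjusted p 0.270), a fold change that rests on PBS libraries at or near 0. Psmb8, an immunoproteasome subunit, had 8.87 to 13.8 CPM in PBS against 12.7, 59.0 and 49.0 CPM in TNF (1.83, SE 0.48, adjusted p 0.270), and Ifi35 went from 7.15 ± 0.990 CPM in PBS to 9.94, 27.3 and 24.6 CPM (1.53, SE 0.37, adjusted p 0.270). Without TNF replicate 1 the log2 fold changes were 5.37 for Gbp2, 7.40 for Ido1, 2.28 for Psmb8 and 1.88 for Ifi35, with adjusted p of 2.14e-06 to 3.91e-04 by edgeR.

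Genes known as STAT3 targets had fold changes of both signs. Of 16 tested, 7 had a positive and 9 a negative log2 fold change (median -0.10), and 0 passed 5% with edgeR, with 6 at an unadjusted p under 0.05, 3 called by DESeq2 and 0 by limma-voom. Leaving out TNF replicate 1 gave 4 higher and 3 lower of the same 16 (25.0% and 18.8%, median 0.03). Both the 6 and the 4 include a gene with 9, 10 and 3 counts in PBS, which needed TNF libraries to pass the low-count filter. The antimicrobial lectin Reg3g had 2420 to 2810 CPM in PBS against 3010, 27800 and 36700 CPM in TNF (log2 change 3.14, SE 0.80, adjusted p 0.270 by edgeR), and Reg3b had a log2 fold change of 4.31. Bcl3 (-1.90, SE 0.33, adjusted p 0.270) and the kinase gene Pim3 (-0.65, SE 0.26, adjusted p 0.362), at 77.2 to 127 CPM in PBS against 49.1 to 72.3 CPM in TNF, were lower without overlap, as Socs3 was. Without TNF replicate 1 the log2 fold changes were 3.68 for Reg3g, 4.89 for Reg3b and -1.98 for Bcl3 (adjusted p 6.2e-05, 1.38e-05 and 0.00313 by edgeR), and -0.74 for Pim3 (0.0755). The list was written from general knowledge, and several of its genes also respond to NF-kB.

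**Figure D5:**
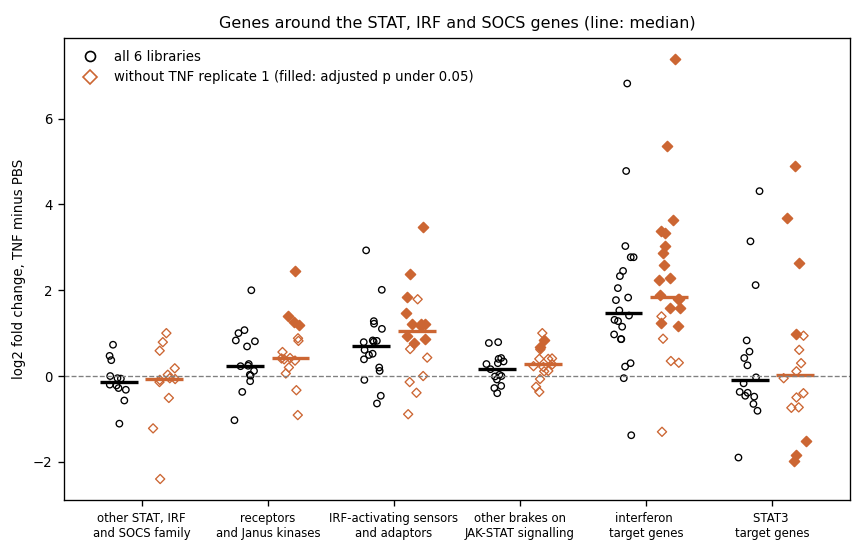
Log2 fold change, TNF minus PBS, of the genes tested over all 6 libraries in 6 groups around the members, for all 6 libraries (circles) and without TNF replicate 1 (diamonds, filled at an adjusted p under 0.05), with medians as lines. No circle passes 5%, and the median of interferon target genes over the same 22 genes is 1.47 with and 1.84 without that library.

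Most genes of the ligands that act through these factors were not detected in the PC libraries. Of 15 ligand genes, 9 had 0 counts in every library, among them Ifnb1, Ifng, Ifnl2, Ifnl3, Il6 and Il22, which allows up to 0.255 CPM in the shallowest library on the scaled total. Tnf itself had 0.133 to 0.661 CPM in PBS, 0.680 CPM in TNF replicate 1, and 8.07 and 9.99 CPM in TNF replicates 2 and 3. Lif, a ligand of the interleukin-6 family, had 1.27 to 1.51 CPM in PBS against 1.96 to 2.09 CPM in TNF.

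Several members overlap other genes in the annotation, and whether the counting used strand is not given in the sources used here. Opposite-strand exons overlap those of Stat3, Irf1, Irf3, Irf7, Socs1 and Socs3. The overlapping protein-coding partners of Irf3 and Irf7 had log2 fold changes of 0.19 (Bcl2l12), -0.13 (Scaf1) and -0.28 (Phrf1), and the largest opposite-strand overlap, of Irf1 with Gm17334 over 1467 bases, belonged to a gene with at most 0.425 CPM.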

How the data were processed

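Single-end sequencing of RNA from sorted PCs used an Element AVITI. The authors deposited raw counts per Ensembl gene, with 0 unused sample columns; per the labels, the build was mm39 and the tools included FastQC, Trimmomatic 0.39, STAR 2.7.10a and DESeq2, without their settings. Not given in the sources used here were the counter, the annotation release and the handling of shared reads. Of 55414 identifiers, 54749 matched GENCODE M39 (GRCm39), which gave symbols, positions (1-based) and lengths; upstream sequences were read from that genome.

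TNF was compared with PBS in R 4.3.3 with edgeR 4.0.16: filterByExpr (minimum count 10, total 15), TMM factors, two-sided quasi-likelihood test, group as the only term, Benjamini-Hochberg adjustment over 13026 genes. SE is the log2 fold change over the square root of F. The fit was tested on simulated data in which the spread between replicates was capped and no library stood apart. That test does not cover the spread seen with TNF replicate 1. CPM are on TMM-scaled totals. A count of 0 allows 3 counts, for counting error only. Each library came from a different mouse.

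Alternatives were RLE, upper-quartile or library-size scaling, TMM without genes above 1% of counts, no filter, a mean CPM of at least 5, each library left out, a replicate block, DESeq2 1.42.0, limma-voom (limma 3.58.1) with or without sample weights, 1%, and 5% with a log2 change of at least 1. The members and lists were chosen with earlier results of these data known. Named genes were the 9 members, up to 4 genes per list with the smallest p (average log2 CPM of at least 1), 3 genes of nearest profile for 4 members (average log2 CPM of at least 2) and the 3 highest immune markers. Ifnar1, Il6st, Osmr, Usp18, Ptpn11, Tnf, Lif, Rnf31 and other marker, ligand and overlapping genes were added once their values had been seen. Certain genes of the lists are not reported here.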

Additional observations from a re-analysis of the deposited data

How the results depend on the processing

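The count of members past 5%, 0 over all 6 libraries with edgeR, became 3 with no low-count filter, and 0 to 3 with 1 library left out, the highest without TNF replicate 1. All other alternatives gave 0 members. The count over all genes became 690 with no filter, 223 with DESeq2 and 1501 with sample weights, and 0 to 1980 with 1 library left out. Counts under no filter, DESeq2 and sample weights were 4, 2 and 4 for receptors and kinases, 16, 4 and 7 for interferon targets, and 6, 3 and 5 for STAT3 targets. For sensors and adaptors no filter gave 2 and sample weights 4, and for other brakes each gave 1. With 1 library left out the ranges were 0 to 5 for receptors and kinases, 0 to 11 for sensors, 0 to 3 for brakes, 0 to 21 for interferon targets and 0 to 10 for STAT3 targets, highest without TNF replicate 1, where genes that pass the low-count filter only without that library are included. The other family members stayed at 0.

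Signs turned for 3 members. With 1 library left out, Stat2 ranged from -0.01 (TNF replicate 2 out) to 1.02 (TNF replicate 1 out), and Stat3 from -0.46 (TNF replicate 2 out) to 0.17 (TNF replicate 1 out). Stat3 was 0.07 with sample weights. Irf8, at 0.00, was -0.01 under RLE factors, a mean CPM of at least 5 and DESeq2, -0.08 under library size, -0.05 under upper-quartile factors, -0.04 when TMM left out abundant genes, -0.03 with no filter, and -0.16 (PBS replicate 2 out) to 0.18 (PBS replicate 1 out) with 1 library left out. The causes were not tested. Deviations of same-numbered libraries from their group means correlated at -0.0128, -0.0748 and 0.0311, and none of the 3 PBS libraries correlated best with its own number. No pairing by replicate number was thus seen. With 3 libraries per group and TNF replicate 1 apart from its group, this check cannot decide whether same-numbered libraries shared a batch. With the replicate block 0 genes passed 5%, as without it. Where every library had 0 counts, depth allows no more than an upper limit.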
